A study of Gossypium barbadense and Gossypium hirsutum with 4 samples.

Results

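The centromere cores of the A subgenome were taken as 2 Mb intervals on chromosomes A01 to A13 of 2 cultivated cottons, and the CENH3-enriched regions (islands) inside them were described: 6726 of the 156610 islands listed for both species. Of these, 4933 came from the 67639 islands of Gossypium barbadense and 1793 from the 88971 islands of Gossypium hirsutum. An island's scaled ratio was its ChIP reads over its input reads, with input raised to at least 3 reads, times a library constant (1.64 for the G. barbadense list and 1.20 for the G. hirsutum list). Islands of scaled ratio 8 or more are called strong below. On each chromosome a window of 1 Mb was moved in steps of 100 kb, the core centre was the midpoint of the window with the most ChIP reads in strong islands, and every island with its midpoint within 1 Mb of that centre was kept, strong or not. The members were thus chosen by their ChIP and input reads, and enrichment near the centre is given as a description with no test.

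CENH3 is the form of histone H3 found in nucleosomes of the active centromere, where it is the base on which the kinetochore is built. In many plants such nucleosomes lie on tandem satellite repeats and centromere-specific retrotransposons, interspersed with nucleosomes that hold canonical H3. Both cottons are allotetraploids, in which an A and a D subgenome from different diploid ancestors lie in one nucleus, and the A chromosomes are the larger ones. CENH3 mapping was used in the series to place the centromeres. The G. barbadense list carries the name Hai7124 and the G. hirsutum list the name TM_1.

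All libraries were from leaves of plants aged 4 weeks; no other treatment was named. Nuclei were digested with micrococcal nuclease, and each species had 1 ChIP library made with an antibody to CENH3 and 1 input library made without antibody. There was no replicate, so no p-value is given, and intervals of ratios are 95% exact binomial (Clopper-Pearson) ones that cover counting error only. The G. barbadense members held 812475 reads from ChIP and 83205 from input, and the G. hirsutum members 152401 and 28303.

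On every A chromosome of both species strong islands formed 1 main cluster. In G. barbadense 76.6% of the members were strong (3778 islands), where 16.5% of all islands of that list were. In G. hirsutum 56.2% were strong (1007 islands), where 2.65% of all islands of that list were. These shares follow from the choice of the members and are given to show what the cores hold. The cores took up 1.90% of the A chromosome length in G. barbadense and 1.83% in G. hirsutum, with the end of the last island as the length. They held 73.5% of the 5140 strong islands of the G. barbadense A chromosomes, and 61.4% of the 1641 on those of G. hirsutum. Over all members the ChIP to input ratio, which is the sum of ChIP reads over the sum of input reads times the constant, was 16.01 (15.9 to 16.13) in G. barbadense and 6.46 (6.38 to 6.54) in G. hirsutum. Within a radius of 0.5 Mb the G. barbadense ratio was 30.4, and with centres from the ChIP reads of all islands the G. hirsutum ratio was 2.24. In the other islands of the A chromosomes it was 2.02 (2.01 to 2.02) in G. barbadense and 2.07 (2.06 to 2.07) in G. hirsutum.

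**Figure D1:**
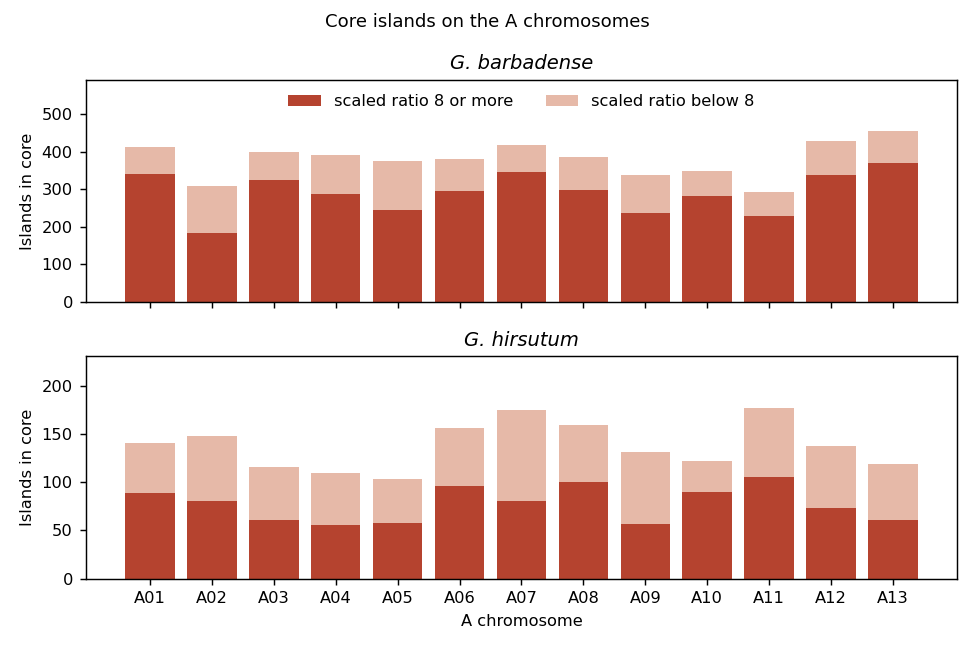
Number of core islands on each A chromosome (bars, from 0), with strong islands (scaled ratio 8 or more) in dark and the others in light colour; the upper panel is G. barbadense and the lower panel G. hirsutum, each with its own axis. The G. barbadense cores hold 294 to 455 islands and the G. hirsutum cores 103 to 177.

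The number of islands in a G. barbadense core ran from 294 on A11 to 455 on A13, with a median of 385. After A13 the fullest cores were those of A12 with 428 islands, A07 with 417, A01 with 412 and A03 with 398. The middle was taken by A04 with 390, A08 with 385, A06 with 381 and A05 with 376. A10 held 350 islands, A09 held 338 and A02 held 309, so that A02 and A11 stood lowest. Strong islands were fewest on A02, where 185 of 309 were strong (59.9%), and most numerous on A13, where 371 of 455 were (81.5%).

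G. hirsutum cores held 103 islands on A05 to 177 on A11, with a median of 137. A07 followed A11 closely with 175 islands, and A08 with 159, A06 with 156 and A02 with 148 came next. A01 held 141, A12 held 137 and A09 held 131. The cores of A10 (122), A13 (119), A03 (116) and A04 (109) lay near the low end with A05. The share of strong islands was highest on A10, at 73.8%, and lowest on A09, at 43.5%, and on A07, at 46.3%.

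The chromosomes with the fullest cores were not the same in the lists. A11 had the fewest core islands in G. barbadense and the most in G. hirsutum, and A13 had the most in G. barbadense and was among the 4 lowest in G. hirsutum. Over the 13 chromosomes the rank correlation of island number between the lists was -0.192 (Pearson -0.277), a description in which all points of a list share 1 pair of libraries. For the ChIP to input ratio of the core the rank correlation was 0.231, and for covered length it was -0.121.

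The ratio of a whole core was highest in G. barbadense on A03, at 19.9 (19.3 to 20.4), and on A10, at 19.2 (18.7 to 19.7), whose counting intervals overlap. It was lowest on A02, at 12.3 (12.0 to 12.6), on A05, at 12.8 (12.6 to 13.1), and on A09, at 12.95 (12.6 to 13.3). The A02 interval overlaps that of A05 and not that of A09. In G. hirsutum the highest ratios were 8.69 (8.23 to 9.18) on A10 and 7.75 (7.34 to 8.20) on A01, and the lowest were 4.89 (4.72 to 5.06) on A07 and 5.37 (5.15 to 5.61) on A09. A10 was thus in the upper pair of both lists, while A07, lowest in G. hirsutum, stood at 17.6 (17.1 to 18.2) in G. barbadense, above the median of 17.3.

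The A07 core of G. hirsutum also held the most input reads, 4032 against a median of 2010 over the 13 cores, and the largest covered length, 364 kb. Its 118 islands within 500 kb of the centre had a ratio of 7.30 (6.96 to 7.66), the lowest inner ratio of that list, and its 57 islands farther out had 2.57 (2.44 to 2.71), again the lowest. In G. barbadense the A07 inner islands had the highest ratio of the list, 38.2 (36.5 to 40.2). The part of input depth or copy number in the contrast between the A07 cores was not tested.

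Enrichment was graded from the centre outward, with a steep shoulder. The window that placed the centre reached 500 kb to each side of it. In G. barbadense the ratio was 41.7 (40.6 to 42.9) within 100 kb of the centre, where all 654 islands were strong. The ratio was 39.8 (38.8 to 40.8) at 100 to 200 kb and 33.5 (32.7 to 34.3) at 200 to 300 kb. It was 28.0 (27.3 to 28.6) at 300 to 400 kb and 18.1 (17.7 to 18.4) at 400 to 500 kb. At 500 to 600 kb it was 9.23 (9.02 to 9.45), at 600 to 700 kb it was 4.54 (4.44 to 4.64), and in the last 100 kb before the edge it was 2.55 (2.48 to 2.62). The share of strong islands went with it, from 98.9% at 300 to 400 kb to 70.0% at 500 to 600 kb, 37.9% at 600 to 700 kb and 4.18% in the last 100 kb.

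G. hirsutum ratios were lower and changed little out to 300 kb. The ratio was 10.9 (10.5 to 11.4) within 100 kb and still 10.4 (9.96 to 10.8) at 200 to 300 kb. It was 6.16 (5.92 to 6.43) at 400 to 500 kb, 4.18 (3.99 to 4.38) at 500 to 600 kb and 2.82 (2.71 to 2.93) in the last 100 kb. Strong islands made up 79.0% of the islands within 100 kb, 50.9% at 400 to 500 kb and 19.5% at 500 to 600 kb. Beyond 600 kb their share was between 6.56% and 12.8%, with no steady fall.

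**Figure D2:**
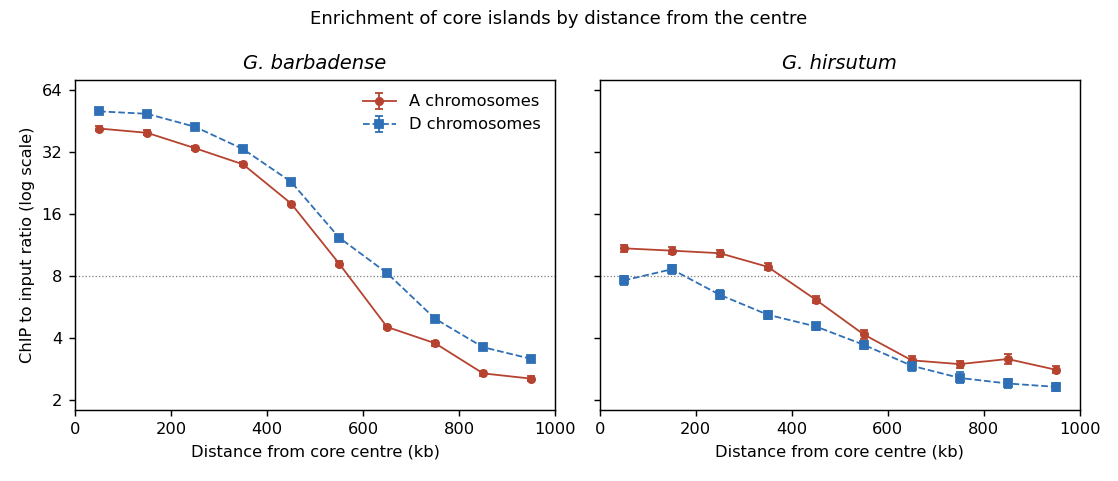
ChIP to input ratio (log axis) of core islands pooled over 13 chromosomes, in bins of 100 kb of distance from the core centre, for A chromosomes (circles, solid) and D chromosomes (squares, dashed); bars are 95% exact binomial intervals and the dotted line marks a ratio of 8. The G. hirsutum D line includes D02 and D08, which hold 2 and 1 strong islands. On A chromosomes the ratio goes from 41.7 to 2.55 in G. barbadense and from 10.9 to 2.82 in G. hirsutum.

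The centre was placed by ChIP reads, so a peak there is built in. The width of the cluster was measured on strong members within 1 Mb of the centre. It thus rests on values that the rule used and cannot exceed the core. The central 90% of ChIP reads of the strong members (from the lower 5% onward) spanned a median of 0.95 Mb in G. barbadense, against 0.762 Mb in G. hirsutum. The G. barbadense span was widest on A07 (1.09 Mb) and A12 (1.08 Mb) and narrowest on A02 (0.67 Mb). In G. hirsutum it was widest on A02 (1.26 Mb), A06 (1.23 Mb) and A04 (1.13 Mb) and narrowest on A09 (0.588 Mb) and A07 (0.633 Mb). The G. barbadense span was the wider one on 9 of 13 chromosomes, with a median difference of 0.15 Mb (range -0.59 to 0.457 Mb). A02 and A07 had opposite places in the lists, and the rank correlation of the span over the 13 chromosomes was -0.549 (Pearson -0.573), again a description.

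**Figure D3:**
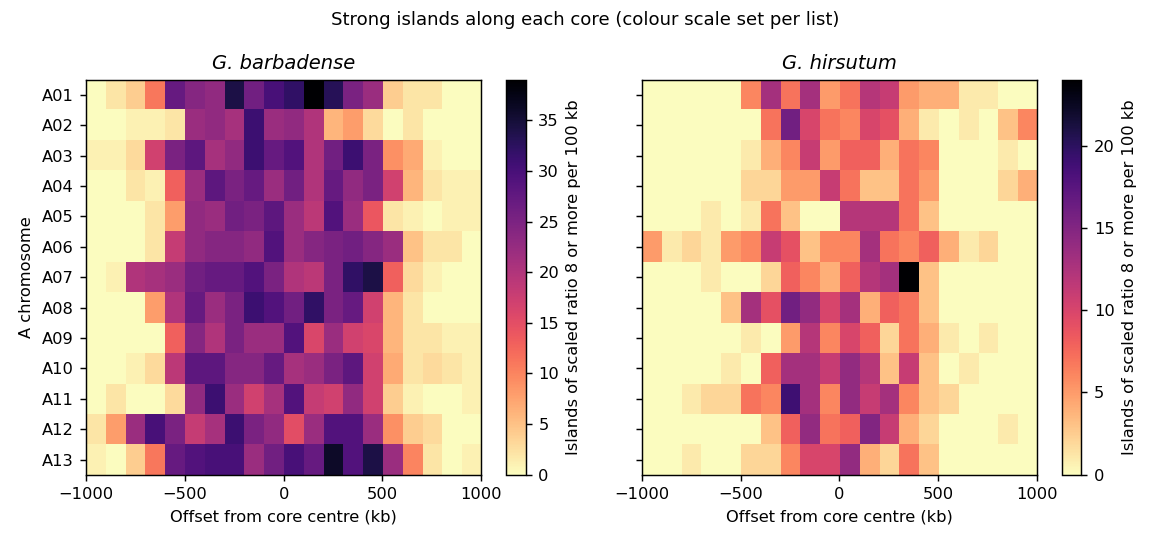
Number of strong islands (scaled ratio 8 or more; colour, scaled separately for each list) per 100 kb at each offset from the core centre (x axis, kb), 1 row per A chromosome. G. barbadense cores reach 39 strong islands per 100 kb and, in fixed bins of 50 kb (not drawn), have no empty bin within 500 kb of the centre. G. hirsutum cores reach 24, with outlying strong islands near the edge on A02, A04 and A06.

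The wide G. hirsutum spans came from strong islands near the edge of the core. More than 800 kb from the centre, A02 held 9 strong islands, A04 held 6 and A06 held 6, and none of the other 10 chromosomes held more than 1. On A02 these were 3 strong islands at 800 to 900 kb and 6 at 900 to 1000 kb on the higher-coordinate side. Between them and the main cluster no strong island lay at 500 to 600 kb or 700 to 800 kb, and 1 lay at 600 to 700 kb. The longest stretch of the A02 core without a strong island was 213 kb. On A04 it was 393 kb, and no strong island lay at 500 to 800 kb on the higher-coordinate side. Long stretches were not limited to these cores, with 399 kb on A12 and 363 kb on A03. On A06 the outlying islands lay on the lower-coordinate side, with 5 in the outermost 100 kb and between 1 and 2 in each of the next 3 bins, so the cluster thinned out rather than breaking. From 1 to 2 Mb, outside the core, A02 had 5 further strong islands, A06 had 4 and A04 had 1.

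Some clusters were lopsided. In G. barbadense strong islands on the lower-coordinate side of the A09 centre held 34405 ChIP reads and those on the other side 15043, a ratio of 2.29, and on A02 and A07 this ratio was 1.59 and 1.57. The remaining G. barbadense cores lay between 0.914 (A04) and 1.28 (A13). Among G. hirsutum cores that of A05 was the most lopsided, with 931 reads on the lower side and 5061 on the other, a ratio of 0.184. This core held no island, strong or not, from 200 kb below the centre up to the centre. It held 12 strong islands in each of the first 3 bins of 100 kb above it. The other G. hirsutum cores lay between 0.489 (A07) and 1.82 (A08). The lists do not state whether chromosomes run in the same direction in both assemblies, and sides were not compared between species.

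The texture of the clusters differed more between the lists than their width. Neighbouring strong islands of a G. barbadense core were separated by a median of 1200 bp, with chromosome medians of 1000 to 1200 bp. In G. hirsutum the median was 5600 bp and chromosome medians ran from 3400 bp on A10 to 13200 bp on A04. The strong limit of 8 lay near the median scaled ratio of G. hirsutum members (8.70) and near the lower quartile in G. barbadense (8.75). It thus left out a larger share of G. hirsutum members, which widens gaps there, and gaps were not measured with another limit. Within 500 kb of the centre, none of the 13 G. barbadense cores had a stretch of 50 kb (of 20 counted per core) without a strong island. In G. hirsutum only A08 had none, and the others had from 1 to 7, the most on A05. Islands covered 35.9% of the 26 Mb of A cores in G. barbadense and 12.4% in G. hirsutum. Cores were covered by 29.5% (A01) to 41.1% (A05) in G. barbadense and by 8.44% (A04) to 18.2% (A07) in G. hirsutum. The cores held 189.7 islands per Mb in G. barbadense and 68.96 in G. hirsutum. The rest of the A chromosomes held 27.86 and 45.34, the opposite order. With 1 ChIP and 1 input library per species, antibody yield, depth and species cannot be told apart here.

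Inner islands (within 500 kb) and outer islands (500 kb to 1 Mb) were set side by side on each chromosome. Inner islands numbered 3247 in G. barbadense, 97.8% of them strong, and 1286 in G. hirsutum, 73.5% of them strong. Outer islands numbered 1686, 35.8% of them strong, and 507, 12.2% of them strong. For G. barbadense the inner ratio ran from 20.7 (20.1 to 21.3) on A02 to 38.2 on A07, and A02 was also the core with the lowest share of strong inner islands, 87.3%. Its outer islands had a ratio of 3.06 (2.95 to 3.18), and only A11, at 2.94 (2.82 to 3.08), was lower. For G. hirsutum the inner ratio ran from 7.30 on A07 to 11.4 (10.7 to 12.2) on A10. The outer ratio was highest on A06, at 5.14 (4.78 to 5.54), a core with strong islands in every bin of 100 kb out to the edge on its lower-coordinate side.

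On 13 of 13 chromosomes the inner ratio was the higher one in G. barbadense, by 2.13 times (A02) to 5.24 times (A07), with a median of 3.22. The outer one was higher there on 11 of 13, with a median of 1.34 times, and was lower on A02 (0.97 times) and A11 (0.916 times). Each species had 1 ChIP and 1 input library, so antibody yield, depth and species cannot be told apart in these differences.

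**Figure D4:**
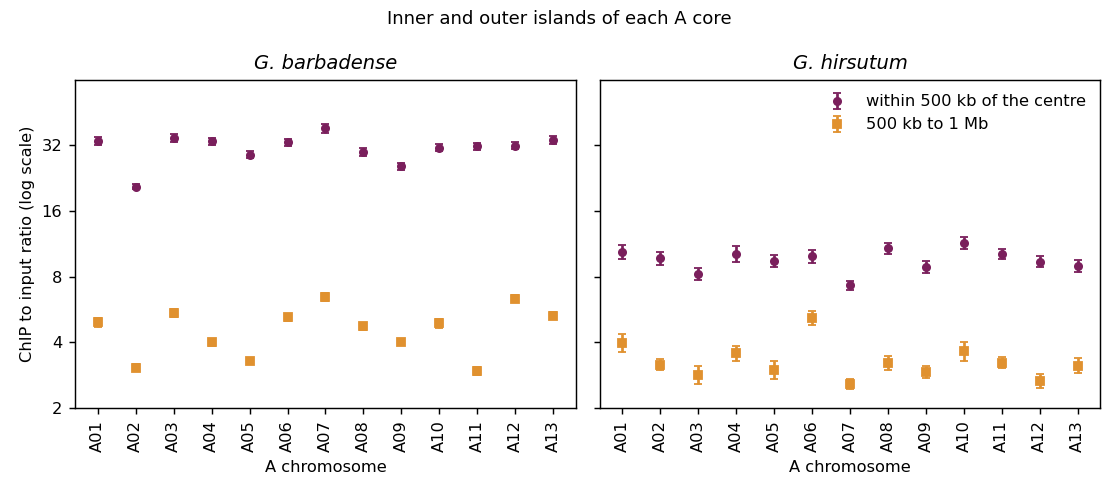
ChIP to input ratio (log axis) of islands within 500 kb of the core centre (circles) and 500 kb to 1 Mb from it (squares) on each A chromosome; bars are 95% exact binomial intervals. Inner ratios lie between 20.7 and 38.2 in G. barbadense and between 7.30 and 11.4 in G. hirsutum, above the outer ratio of every chromosome.

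Single members ranged in scaled ratio from 1.34 to 227 in G. barbadense (median 19.7, interquartile range 8.75 to 34.9) and from 1.43 to 46.8 in G. hirsutum (median 8.70, 4.80 to 12.4). In G. barbadense 326 members (6.61%) reached a scaled ratio of 64 or more, and none did in G. hirsutum. The class of 8 to 16 was the largest in G. hirsutum (785 islands, 43.8%), and that of 16 to 32 was the largest in G. barbadense (1386 islands, 28.1%). Members of scaled ratio 2 to 4 were a median of 792 kb from the centre in G. barbadense and 734 kb in G. hirsutum. Those of 16 to 32 were at 311 and 195 kb. Islands of scaled ratio 4 to 8 lay a median of 382 kb from the centre in G. hirsutum and 661 kb in G. barbadense.

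Among members with at least 40 ChIP reads, the highest scaled ratio in G. barbadense was 227, at A05:56111401-56115600 with 416 ChIP and 2 input reads. Its ratio without the floor was 341 (93.8 to 2826), so the size is poorly fixed by so few input reads. A07:59335601-59340800 followed with 403 ChIP and 2 input reads, and A04:32168801-32171600 with 349 ChIP and 0 input reads, a scaled ratio of 191 at the floor of 3 input reads, for which the exact interval has a lower limit of 154. Both islands named on A06, at 52843401 to 52850200 and at 53270001 to 53273400, had scaled ratios of 175 and 174. All 5 lay within 272 kb of their centre.

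Long G. barbadense members had more input reads and so narrower intervals. The longest, A02:67891601-67916800, was 25200 bp long, lay 4.2 kb from the centre and held 3435 ChIP and 139 input reads, a ratio of 40.5 (34.2 to 48.4). A04:32272401-32293600 held the most ChIP reads, 3764 against 153 input reads, a ratio of 40.4 (34.3 to 47.7). A08:49207201-49229200 (22000 bp) had a ratio of 31.6 (27.1 to 37.1). The second longest, A13:34266801-34290800 (24000 bp), lay 421 kb from its centre and had a ratio of 12.8 (11.5 to 14.3), well below the other long ones.

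The highest scaled ratio of a G. hirsutum member was 46.8 (17.9 to 174), at A13:34342801-34345400 with 156 ChIP and 4 input reads. A11:72220201-72221800 followed at 40.8 (15.6 to 152). A08:52000401-52001200 held 100 ChIP and 0 input reads, a scaled ratio of 40 at the floor, for which the exact interval has a lower limit of 31.9, and its midpoint was 0.8 kb from the centre. A01:66834601-66835400 (93 ChIP and 2 input reads) and A09:19249401-19251400 (89 and 2) completed the first 5. The 3 longest members were on A07 and A09. A07:60079401-60092000 was 12600 bp long with a ratio of 8.53 (6.84 to 10.8), and A07:60572001-60583200 was 11200 bp long with 5.15 (4.23 to 6.30). A09:19573601-19585400 was 11800 bp long and held the most ChIP reads, 852, with a ratio of 9.83 (8.01 to 12.2). A10:48297601-48307000 (654 ChIP reads, ratio 9.69) and A05:56318601-56326400 (642 ChIP reads, ratio 10.4) came next in ChIP reads.

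Island length, which the rule did not use directly, divided the members differently in the species. Members had a median length of 1200 bp in G. barbadense (interquartile range 600 to 2400 bp) and 1400 bp in G. hirsutum (800 to 2400 bp), where the other islands of the A chromosomes had 1200 and 1800 bp. In both lists strong members had a median of 1000 bp, and the others had 1600 bp in G. barbadense and 1800 bp in G. hirsutum. In G. barbadense the 547 members over 4000 bp held 46.4% of the ChIP reads of the cores. The median scaled ratio was 16.4 in members of up to 600 bp and 24.4 in those over 8000 bp in G. barbadense. In G. hirsutum it was 10.4 in members of up to 600 bp, 6.45 in those of 2000 to 4000 bp and 8.53 in the 11 over 8000 bp. Of the members of up to 600 bp, 42.1% in G. barbadense and 28.5% in G. hirsutum had 0 input reads, so their scaled ratio is set by the floor.

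Input reads were sparse in core islands. The members had 8.92 input reads per kb of island in G. barbadense, against 24.97 in the other islands of the A chromosomes, and 8.80 against 19.0 in G. hirsutum. In G. barbadense input density went from 4.82 reads per kb within 100 kb of the centre to 19.2 in the last 100 kb, while ChIP density went from 123 to 29.9. In G. hirsutum input density went from 6.50 to 13.6 and ChIP density from 59.2 to 31.99. Input reads were part of the rule, so these densities are descriptions. Members with 0 input reads numbered 987 in G. barbadense (20.01%) and 164 in G. hirsutum (9.15%), against 0.385% and 0.0522% of the other islands of the A chromosomes. The fewest ChIP reads of any island were 15 in G. barbadense and 20 in G. hirsutum, so an island with 3 or fewer input reads was strong by construction. Among members with more than 3 input reads, 63.3% of 3148 were strong in G. barbadense, as were 44.1% of 1405 in G. hirsutum, against 1.96% and 0.551% of the other islands of the A chromosomes. The authors' deposited false discovery rate was 0 for 754 G. barbadense members, or 15.28% of 4933. Outside the cores 2 of the 37436 islands on these A chromosomes had that value. For G. hirsutum it was 0 for 10 members, or 0.558% of 1793, against 3 of the 63264 islands outside the cores. That rate is for ChIP against input reads, the reads by which the members were chosen, so these shares are descriptions too.

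Members on either side of the limits were close in value. In G. barbadense the islands next to the strong limit had scaled ratios of 7.97 and 7.995 below it and 8.01 and 8.06 above it. In G. hirsutum the nearest below were at 7.98 and 7.99. The nearest at the limit were islands of 20 ChIP reads with 2 and 0 input reads, whose scaled ratio of 8 is the least the floor allows. At the edge of 1 Mb the last islands inside had scaled ratios of 6.77 and 1.71 in G. barbadense and 4.37 and 2.74 in G. hirsutum. The first outside had 4.74 and 1.86, and 3.73 and 2.47.

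Strong islands away from the core were few in any 1 Mb window of an A chromosome. The core window was picked as the one with the most ChIP reads in strong islands, so its being the fullest is built in and only the size of the gap is a description. The best window more than 2 Mb from the centre held 122 to 562 ChIP reads in strong islands in G. barbadense, against 40505 to 60236 in the core window. In G. hirsutum it held 95 to 146, against 3491 to 9993. The core window was 106 times (A11) to 438 times (A05) as full as the next in G. barbadense and 32.3 times (A04) to 98.9 times (A11) in G. hirsutum. Counted over all islands, strong or not, the fullest window moved the centre by over 1 percentage point of chromosome length on 8 A chromosomes of G. hirsutum, on A13 by 60.2 points, and on none of G. barbadense.

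Centres placed by strong islands lay within 5 percentage points of chromosome length of each other on 13 of 13 A chromosomes. With centres from the ChIP reads of all islands this held on 5 of 13. Coordinates belong to different assemblies, so centres were compared as a percentage of the position of the last island's end. This comparison takes each chromosome to run in the same direction in both assemblies. The difference was at most 2.2 percentage points, on A02 (66.6% in G. barbadense and 64.4% in G. hirsutum), with a median of 0.43 points. A11 (58.1% and 59.6%) and A05 (51.9% and 50.8%) were the others above 1 point. A03 differed least, at 36.4% and 36.3%, followed by A04 at 39.2% in each. The most eccentric centre was that of A09, at 24.2% and 23.4%. In Mb on each assembly the centres stood, in G. barbadense and then G. hirsutum, at 65.0 and 66.6 on A01, 67.9 and 69.7 on A02, 39.1 and 40.5 on A03, and 32.1 and 34.4 on A04. They stood at 55.9 and 56.2 on A05, 53.0 and 56.2 on A06, 59.5 and 60.1 on A07, 49.5 and 52.0 on A08, and 19.1 and 19.4 on A09. On A10 to A13 they stood at 46.8 and 47.9, 67.5 and 72.2, 33.0 and 34.7, and 34.7 and 34.4.

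The same rule on D01 to D13 gave 5261 G. barbadense islands and 1122 G. hirsutum islands, and the subgenomes were compared in each list. The pairs below are by chromosome number, and A02 with A03 and A04 with A05 are known to have exchanged segments in these cottons. In G. barbadense the A core held more islands in 5 of 13 pairs (3, 6, 7, 12 and 13), and its ratio was the higher one in 3 (pairs 1, 7 and 10). The median A to D quotient was 0.922 for islands and 0.805 for the ratio. In G. hirsutum the A core held more islands in 11 of 13 pairs, all but pairs 3 and 13, and its ratio was higher in 11, all but pairs 7 and 13. The median quotients were 1.63 and 1.38. Islands per Mb in G. hirsutum were 68.96 in A cores and 43.15 in D cores, and 45.34 and 28.81 on the rest of these chromosomes. More islands on A than on D were thus also listed outside the cores, and the count of pairs is not particular to them. In G. barbadense the densities were 189.7 and 202.3 in the cores, and 27.86 and 25.45 outside. With centres from the ChIP reads of all islands, A held more islands in 8 of 13 G. hirsutum pairs. Without pairs 2 and 8, whose D cores in G. hirsutum held 2 and 1 strong islands, A held more islands in 9 of 11 pairs there and in 5 of 11 in G. barbadense. Pairs 4 and 11 were kept, though their D cores in G. hirsutum held only 15 strong islands each. Coverage was higher on A in 6 of 13 G. barbadense pairs and 11 of 13 G. hirsutum pairs, and without pairs 2 and 8 in 6 of 11 and 9 of 11. By the ratio of the core, A was higher in 9 of 11 G. hirsutum pairs and 3 of 11 G. barbadense pairs without them.

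By distance from the centre, G. barbadense D islands at 600 to 700 kb had a ratio of 8.29 (8.09 to 8.502), against 4.54 on A, and 61.4% of them were strong, against 37.9%. Within 100 kb the values were 50.6 (49.0 to 52.2) on D and 41.7 on A. In G. hirsutum the D ratio within 100 kb was 7.64 (7.29 to 8.01), against 10.9 on A, but the D pool includes D02 and D08, where no cluster of strong islands was found. Without them it was 10.2 (9.65 to 10.8), an interval that overlaps that of A (10.5 to 11.4). At 600 to 700 kb the G. hirsutum values were 3.13 (2.98 to 3.28) on A and 2.95 (2.77 to 3.13) on D, or 3.52 (3.27 to 3.78) on D without D02 and D08. These are differences between chromosomes within 1 pair of libraries, they rest on values that the rule used, and they were not tested.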

How the data were processed

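The submitters' processing notes name Trimmomatic, Bowtie2 and SICER; their versions and the assemblies are not given in the sources used here. By the lists' names, SICER ran with 200 bp windows, 400 bp gaps and a false discovery rate of 0.01, and a tag reads uniq. If multiply mapped reads were dropped, repeats may hold no island whatever their CENH3. The lists have no header and were read in SICER's column order. The authors deposited raw counts of ChIP and input reads per island, a p-value and a false discovery rate (q-value), and a fold, which is a linear ratio. Where input was above 0, the deposited fold equalled ChIP over input counts times 1.64 (G. barbadense) or 1.20 (G. hirsutum). Windows for the centre started at the first base. Coordinates are 1-based, on each list's own assembly. Groups came from sample titles. The members, lists and measures were chosen with earlier results of these data known. The A to D comparisons without D02 and D08 (pairs 2 and 8) and that of strong members alone were added after seeing the data. Named islands were, per list, the 5 of highest scaled ratio with at least 40 ChIP reads, the 3 longest and the 3 with most ChIP reads, plus those next to the limits; all 13 chromosomes were described. The centre rule was tested on simulated lists with planted cores on an even background. The planted cores had the same enrichment in both lists, above that of the G. hirsutum cores, so the test does not show how the rule does on weak cores. Python 3.11.15, pandas 2.3.3, numpy 2.4.6 and scipy 1.17.1 were used. Reads outside islands and library totals were not used here. No molecular identifiers are named in the labels, so reads are not counted as independent molecules and intervals cover counting error only.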

Additional observations from a re-analysis of the deposited data

How the results depend on the processing

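Island counts, pooled ratio, coverage, the nearness of centres between lists and the count of pairs with more islands on A were recomputed under 10 alternatives; profiles, spans, gaps, side ratios, inner and outer ratios and rank correlations were not. With the centre from ChIP reads of all islands, with no limit on the scaled ratio, only 5 of 13 centres were within 5 points between lists, against 13 under each of the other 9, and 8 G. hirsutum centres moved by over 1 point, that of A13 by 60.2 points. The G. hirsutum ratio was then 2.24 and the coverage 14.3%. The cause was not tested. In G. barbadense no A centre moved by more than 0.316 points under any alternative. A radius of 0.5 Mb left 3247 islands in G. barbadense (ratio 30.4, coverage 47.8%), and gave a ratio of 9.45 and a coverage of 16.5% in G. hirsutum, since it leaves out the outer islands. With a centre window of 0.5 Mb the ratios were 16.2 and 6.25 and the coverages 35.5% and 12.6%. With islands of false discovery rate 1e-05 or less they were 17.1 and 6.70, and 35.0% and 12.1%. With the centre from islands of scaled ratio 16 or more the G. hirsutum ratio was 6.29. All other values of ratio stayed within the counting interval of the reported value. For coverage the interval was a binomial one over 200 bp windows taken as independent. Windows of an island adjoin, so that interval is likely too narrow. All other coverages stayed within it, and all other counts within 1.5 times. That limit is wide for pairs: in G. hirsutum A held more islands in 11 of 13. With the centre from ChIP reads of all islands this was 8 of 13, and with a radius of 0.5 Mb it was 10. No paired analysis was possible because there was 1 library of each kind per species. Depth limits the ratios of single islands: 36.2% of members in G. barbadense and 21.6% in G. hirsutum had 3 or fewer input reads.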
